A study of Mus musculus with 9 samples.

Results

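The genes Man2a1, Dusp4 and Myt1l form 1 set because many reads recovered with the mRNA-binding protein Chtop fell in their 5' UTRs while the inputs had none there. They are 3 of the 22442 genes counted and of the 8872 with a 5' UTR entry. They were listed by symbol after their counts against the inputs had been seen, so their high 5' UTR counts, their 5' UTR shares and their zeros in the inputs chose them, and these values are given as a description with no test. The comparison of the Chtop isoforms with each other was tested.

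Chtop is a chromatin-associated, arginine-rich protein that binds RNA and works with the TREX complex, which couples transcription to the export of mRNA from the nucleus. The 5' UTR lies between the cap and the start codon and is scanned by the small ribosomal subunit before translation starts. The 3 genes have separate roles. Man2a1 encodes Golgi alpha-mannosidase II, which trims mannose from N-linked glycans so that complex glycans can form. Dusp4 encodes a nuclear dual-specificity phosphatase that inactivates MAP kinases and is itself induced by MAP kinase signalling. Myt1l encodes a zinc finger transcription factor of neurons that represses genes of other cell fates.

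The data are iCLIP libraries, in which ultraviolet light joins RNA to the protein that touches it before the protein is pulled down and its RNA sequenced. The cells were N2a Flp-In rtTA, a mouse neuroblastoma line engineered so that 1 cDNA per line is switched on by doxycycline. The first group expressed FLAG-tagged Chtop that contains exon 5, the second expressed FLAG-tagged Chtop that lacks it, and each gave 3 anti-FLAG libraries from biological replicates taken on different days. Size-matched inputs, lysate that skipped the pulldown but was separated by size alongside it, gave 3 more libraries: input 1 from the line without exon 5, input 2 from the line with exon 5 and input 3 from a line expressing FLAG-GFP. All lines were induced with 2 µg/mL doxycycline for 24 h and irradiated with 0.15 J/cm2 at 254 nm, so every group, inputs included, carried an induced FLAG-tagged cDNA. The tagged protein came from an added cDNA, and the labels do not say how many clones each line represents.

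A pulldown count rises with the amount of the mRNA as well as with its contact to Chtop, and with 1 input per line these cannot be told apart between the isoforms; nor can fewer cells and less RNA per cell. Depth differed between the groups. The pulldowns held 624062 to 1844970 counts in genes and the inputs 75504 to 173342, so 3 counts in a library were worth 2.12 to 5.57 CPM in the pulldowns and 16.0 to 20.8 CPM in the inputs. CPM here is the count per 1000000 counts of a library, scaled by TMM. 5' UTRs took 2.89% to 3.65% of the counts in all 9 libraries. Those counts were spread over 1411 to 2375 genes in the pulldowns and over 276, 540 and 165 genes in inputs 1 to 3. Of 10 listed markers of neuroblastoma or neurons, 6 were named in the tables, and all 6 were counted in the pulldowns and 4 in the inputs; their summed level was 253 to 445 CPM with exon 5, 301 to 342 CPM without it and 166 to 598 CPM in the inputs. Of 8 listed markers of glia, fibroblasts and blood, 4 were named and 3 counted in the pulldowns, with Col1a2 at 0 everywhere, and their sum was 12 to 18 CPM, 10 to 42 CPM and 0 to 76 CPM in the same order.

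Man2a1 (ENSMUSG00000024085.13) spans chr17:64600688-64755110 on GRCm38.p6, and its deposited part lengths are 1000 bases of 5' UTR, 3522 of CDS and 2469 of 3' UTR. Dusp4 (ENSMUSG00000031530.6) spans chr8:34807610-34819894, with 432, 1194 and 1114 bases in the same order. Myt1l (ENSMUSG00000061911.15) spans chr12:29527590-29923216, with 1675, 3675 and 4308 bases. The median 5' UTR among the 3456 genes with a deposited 5' UTR length and at least 100 counts over the 6 pulldowns was 248 bases. Among those genes Myt1l ranked 27th for the length of its 5' UTR, Man2a1 123rd and Dusp4 871st, so all 3 had a 5' UTR above the median and Dusp4 the shortest of them. Annotation places the antisense RNA gene Gm20208 at chr12:29526958-29531102 on the minus strand, across the start of Myt1l, which lies on the plus strand. The sources used here do not state whether counting used strand, so reads of Gm20208 and of the Myt1l 5' UTR cannot be told apart. The RNA genes C630031E19Rik (chr12:29675630-29686445) and Gm46346 (chr12:29911433-29915292) also lie within the span of Myt1l. Whether their reads were counted in a part of Myt1l was not tested. No annotated gene overlapped Man2a1 or Dusp4.

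Summed over the 6 pulldowns Man2a1 had the most 5' UTR reads of the 3 genes, though without exon 5 it had 633 counts against 714 for Dusp4. The 5' UTR received 93, 175 and 205 counts in replicates 1 to 3 of Chtop with exon 5 and 107, 105 and 421 counts in those without exon 5, against 0, 0 and 0 in the inputs. On the CPM scale these were 134, 252 and 194 with exon 5, a mean of 193 ± 59.0 (SD, n = 3), and 199, 125 and 298 without it, a mean of 207 ± 86.9 (SD, n = 3). The isoforms' libraries overlapped throughout, and the highest and the lowest value both belonged to Chtop without exon 5.

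The CDS of Man2a1 lay at 341, 216 and 191 CPM with exon 5 and at 186, 185 and 64.3 CPM without it, and the inputs held 82.9, 133 and 96.9 CPM. All libraries with exon 5 were above all without it, the nearest pair lying close together at 191 and 186 CPM, and 1602 of all 12190 gene parts tested (13.1%) also showed no overlap of the isoforms. The 3' UTR held 60.4, 114 and 131 CPM with exon 5 and 44.6, 61.7 and 43.8 CPM without it, with overlap of 1 library. Replicate 3 without exon 5 had both the highest 5' UTR level and the lowest CDS level of Man2a1 among the 6 pulldowns.

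Dusp4 had 92, 66 and 129 counts in its 5' UTR with exon 5 and 132, 164 and 418 without exon 5, and again 0, 0 and 0 in the inputs. Scaled, the 5' UTR lay at 132, 94.9 and 122 CPM with exon 5, a mean of 116 ± 19.3 (SD, n = 3), and at 245, 194 and 296 CPM without it, a mean of 245 ± 50.5 (SD, n = 3). Every library without exon 5 was above every library with it, and the isoforms also failed to overlap in 80 of all 731 5' UTRs tested (10.9%).

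The rest of Dusp4 was also present in the inputs. Its CDS held 274, 129 and 104 CPM with exon 5, 284, 266 and 320 CPM without it, and 343, 79.9 and 0 CPM in the inputs. The isoforms overlapped, since replicate 1 with exon 5 lay above replicate 2 without it. Its 3' UTR held 74.7, 97.8 and 65.3 CPM, then 81.7, 55.7 and 58.0 CPM, and in the inputs 5.92, 79.9 and 152 CPM. Input 1 of Dusp4 was almost all CDS, with 58 of 59 counts, and input 3 all 3' UTR, with 22 of 22, so single inputs give no stable picture of where reads of this gene lie.

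Myt1l had the fewest 5' UTR reads, with 64, 51 and 139 counts with exon 5, 83, 107 and 283 counts without exon 5, and 0, 0 and 0 in the inputs. Scaled, these were 92.0, 73.3 and 132 CPM with exon 5, a mean of 98.9 ± 29.7 (SD, n = 3), and 154, 127 and 200 CPM without it, a mean of 160 ± 37.0 (SD, n = 3). The groups overlapped by 1 library on each side.

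In the inputs Myt1l was nearly free of reads in its CDS as well, where Man2a1 had 53 counts and Dusp4 73. The CDS held 170, 105 and 288 counts with exon 5 and 122, 146 and 649 counts without exon 5, and the inputs held 0, 0 and 1. Its 3' UTR was the part seen in the inputs, with 10, 18 and 0 counts there, against 77, 94 and 73 with exon 5 and 88, 161 and 184 without it. Input 3 had a single count in all of Myt1l.

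**Figure D1:**
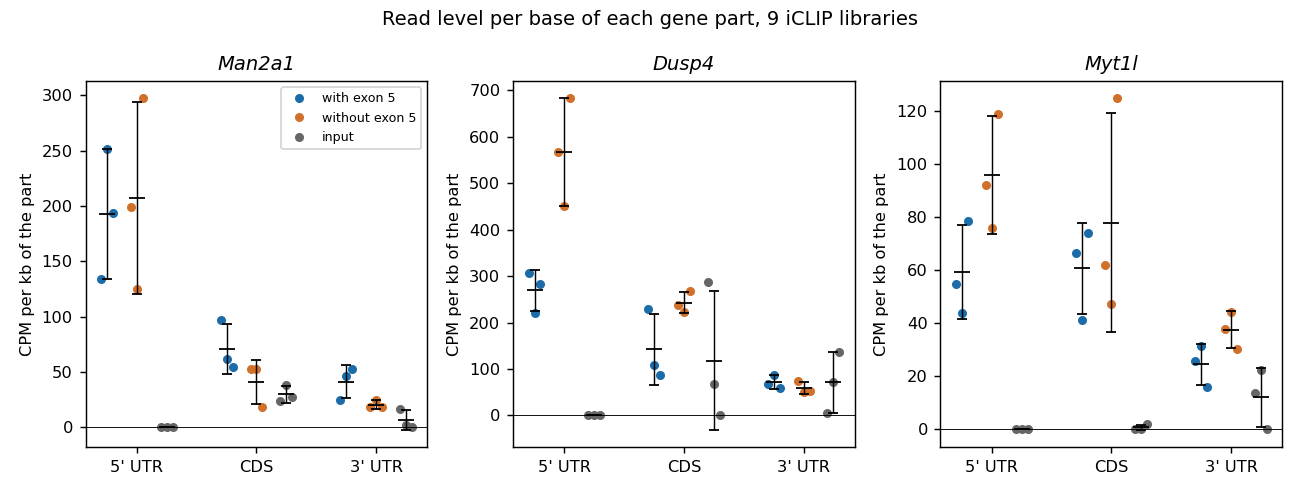
Level per base (CPM per kb of the part) of the 5' UTR, CDS and 3' UTR of Man2a1, Dusp4 and Myt1l. Each point is 1 library, with the mean and SD of 3 libraries in black; blue is Chtop with exon 5, orange without exon 5 and grey input. The inputs lie at 0 in every 5' UTR, and the 5' UTR is the densest part of Man2a1 and Dusp4 in the pulldowns, while in Myt1l it lies near the CDS.

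Per base, Dusp4 had the densest 5' UTR. Its level was 269 ± 44.6 CPM per kb with exon 5 and 567 ± 117 CPM per kb without it (SD, n = 3). Man2a1 had 193 ± 59.0 and 207 ± 86.9 CPM per kb, and Myt1l 59.1 ± 17.7 and 95.8 ± 22.1 CPM per kb, in the same order. Without exon 5 the order Dusp4, Man2a1, Myt1l held with no overlap of libraries between neighbours. With exon 5, replicate 2 of Man2a1 at 252 CPM per kb was above replicate 2 of Dusp4 at 220 CPM per kb, so those neighbours overlapped.

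The 5' UTR was also set against the CDS of the same gene, per base. In Man2a1 the 5' UTR was denser than the CDS in 6 of 6 pulldowns, by 1.38, 4.11 and 3.57 times with exon 5 and by 3.77, 2.37 and 16.3 times without it. The last value is replicate 3 without exon 5, with its low CDS. In Dusp4 it was denser in 6 of 6, by 1.33, 2.03 and 3.24 times and by 2.38, 2.02 and 2.55 times. In Myt1l the ratio was 0.826, 1.07 and 1.06 with exon 5 and 1.49, 1.61 and 0.957 without it, around equality, with 4 of 6 pulldowns above 1. The libraries of the 3 genes overlapped in this ratio, the 2 highest of Myt1l lying above the lowest of Man2a1 and of Dusp4.

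Against the 3' UTR, the 5' UTR was denser per base in all 3 genes and in 6 of 6 pulldowns. The genes were listed for their 5' UTR counts, so a 5' UTR denser than the CDS or 3' UTR only describes them. How many other genes share it was not counted. The ratio ran from 3.67 to 16.8 in Man2a1, from 2.5 to 13.1 in Dusp4 and from 1.4 to 4.9 in Myt1l. In Dusp4 the isoforms did not overlap in this ratio, at 4.56, 2.5 and 4.82 with exon 5 and 7.74, 9.0 and 13.1 without it, as in 39 of the 348 ranked genes (11.2%) with both parts counted in every pulldown.

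As a share of all counts of the gene, the Man2a1 5' UTR held 25.0%, 43.3% and 37.6% with exon 5 and 46.3%, 33.5% and 73.3% without it. The means were 35.3% ± 9.37 and 51.1% ± 20.3 (SD, n = 3). Replicate 3 without exon 5 stands above the other 5 pulldowns, with an exact 95% binomial interval (Clopper-Pearson) starting at 69.5% that covers counting error only, and without it the difference between the isoforms went from -15.8 to -4.62 percentage points. For Dusp4 the shares were 27.5%, 29.5% and 41.9% with exon 5 and 40.1%, 37.7% and 43.9% without it, with means of 32.9% ± 7.81 and 40.6% ± 3.1 (SD, n = 3). For Myt1l they were 20.6%, 20.4% and 27.8% with exon 5 and 28.3%, 25.8% and 25.4% without it, with means of 22.9% ± 4.22 and 26.5% ± 1.59 (SD, n = 3).

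The isoforms' shares overlapped in each gene. A two-sided exact permutation test over the libraries gave p = 0.4 for Man2a1, p = 0.3 for Dusp4 and p = 0.3 for Myt1l, all at 0.4 after Benjamini-Hochberg adjustment over these 3 tests. With 3 libraries against 3 the smallest p this test can give is 0.1, so it could not have passed 0.05. The mean share with exon 5 minus that without it was -15.8, -7.62 and -3.58 percentage points in the same order.

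**Figure D2:**
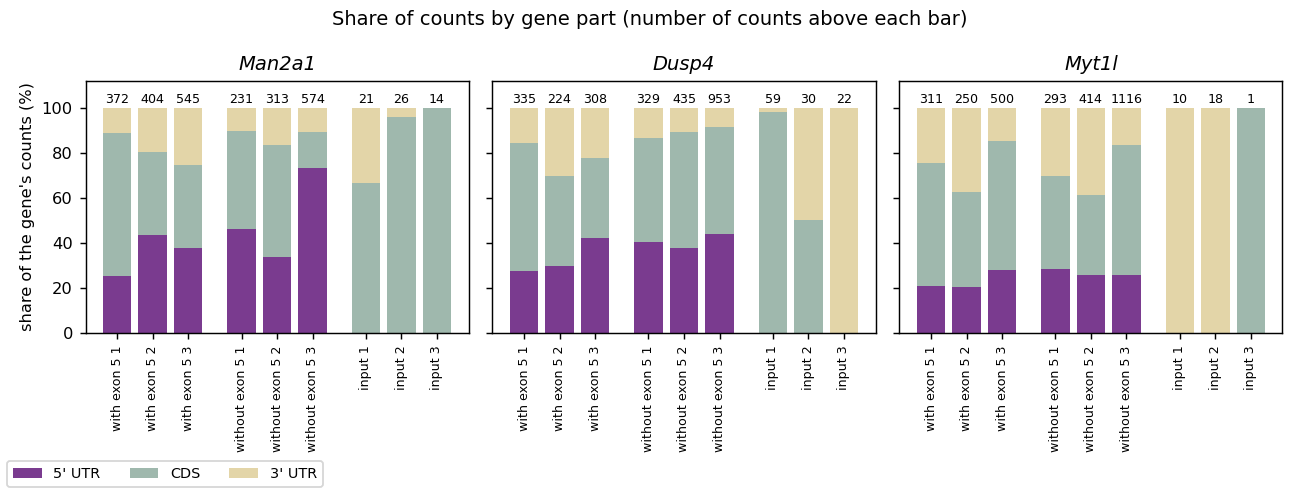
Share of each gene's counts (%) in its 5' UTR, CDS and 3' UTR, 1 stacked bar per library, with the number of counts above each bar. The 5' UTR takes 20.4% to 73.3% in the pulldowns and 0 in each input, and the input bars rest on 1 to 59 counts.

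The inputs set a limit to what their zeros show. The 3 inputs together held 61 counts of Man2a1, 111 of Dusp4 and 29 of Myt1l, and 0 in the 5' UTR allows a share of up to 4.92%, 2.7% and 10.3% in that order. At the mean share seen with exon 5, the inputs would have held 21.5 counts in the Man2a1 5' UTR, 36.6 in that of Dusp4 and 6.65 in that of Myt1l. The contrast is thus backed by the fewest reads in Myt1l. Since primers carried random bases but it is not stated whether duplicates were collapsed, these limits cover counting error only.

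Against 3 counts per input library, a floor of 18.2 CPM on average, the 5' UTR level of Man2a1 was at least 10.6-fold higher with exon 5 and at least 11.4-fold higher without it. Dusp4 was at least 6.41-fold and at least 13.5-fold higher, and Myt1l at least 5.45-fold and at least 8.83-fold higher. The TMM factors were 1.08 to 1.91 for the inputs and 0.767 to 0.888 for the pulldowns, and by library size alone the same bounds were 5.71 and 6.01 for Man2a1, 3.48 and 7.17 for Dusp4, and 2.94 and 4.69 for Myt1l.

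In the edgeR fit of all gene parts against input, the 5' UTRs of all 3 genes were among the 58 of 731 (7.93%) called higher with exon 5 and the 70 (9.58%) called higher without it, which draws on the values that chose them and is given as a description only. The log2 difference of the Myt1l CDS from input, 6.63 with exon 5 and 6.99 without it, rests on 1 count in the inputs; over all genes 13.5% and 12.6% of CDS entries were called higher. For the CDS of Man2a1 it was 1.25 and 0.47, and for that of Dusp4 0.26 and 1.04. For the 3' UTR it was 2.68 and 1.66 in Man2a1, 0.00 and -0.28 in Dusp4, and 1.00 and 1.62 in Myt1l, where 6.91% and 6.73% of all 3' UTRs were called higher. The median log2 difference from input over the 5' UTRs tested was 3.37 with exon 5 and 3.41 without it. A 5' UTR could pass the filter on low counts through the deeper pulldowns alone, so nothing is read from that median.

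Whether the isoforms differed at these genes was tested with all 9 libraries in 1 fit, with p-values adjusted over all rows. For the 5' UTR of Man2a1 the log2 difference, with over without exon 5, was -0.10 (95% interval -2.09 to 1.89). For that of Dusp4 it was -1.07 (-3.07 to 0.92), and for that of Myt1l -0.70 (-2.80 to 1.41). The median over all 731 5' UTRs tested was -0.26. None of the 3 passed (edgeR adjusted p = 1 in each), and the intervals still admit differences of several fold in either direction for Man2a1.

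Across all gene parts the edgeR fit called 0 of 12190 (0%) between the isoforms. At an unadjusted p under 0.05 there were 201, and DESeq2 called 0.

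The spread in that fit is shared with the shallow inputs. In a fit of the 6 isoform libraries alone the estimates stayed within 0.02 of those above and the intervals narrowed. The 5' UTR of Dusp4 was then at -1.07 (95% interval -1.89 to -0.24), with an unadjusted p of 0.0148 and an edgeR adjusted p of 0.694 among 11507 parts, of which 0 (0%) passed, 718 having an unadjusted p under 0.05. Man2a1 stood at -0.10 (-0.99 to 0.79) and Myt1l at -0.69 (-1.66 to 0.28). Among the 3 genes, Dusp4 alone had an unadjusted p under 0.05 for its 5' UTR; Man2a1 had 0.814 and Myt1l 0.152 in this fit.

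**Figure D3:**
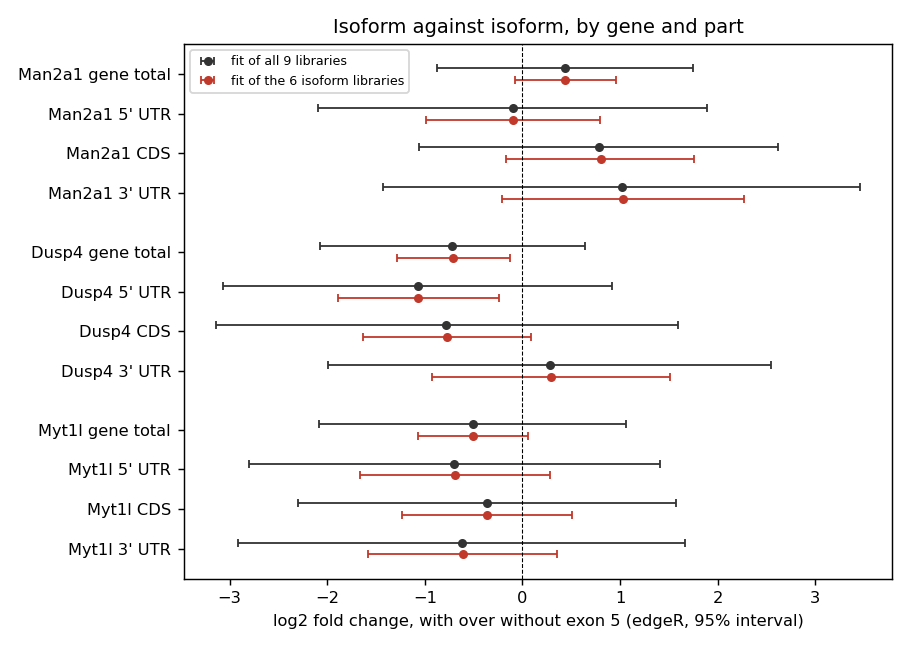
Log2 fold change of Chtop with exon 5 over Chtop without it (horizontal axis) for the gene total and each part of Man2a1, Dusp4 and Myt1l, with 95% intervals, from the edgeR fit of all 9 libraries (black) and of the 6 isoform libraries (red). Every black interval covers 0, and of the red intervals only those of the Dusp4 total and the Dusp4 5' UTR do not. Over all genes, 622 of 7931 totals and 718 of 11507 parts had an unadjusted edgeR p under 0.05 in the fit shown in red.

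The other parts of the 3 genes gave the following isoform differences in the fit of all libraries. The CDS was at 0.78 (95% interval -1.06 to 2.62) in Man2a1, -0.78 (-3.14 to 1.59) in Dusp4 and -0.36 (-2.30 to 1.57) in Myt1l. The 3' UTR was at 1.02 (-1.43 to 3.46), 0.28 (-1.99 to 2.55) and -0.62 (-2.91 to 1.66). None passed (edgeR adjusted p = 1). The estimates differed in sign between parts in Man2a1 and in Dusp4, by less than the width of their intervals.

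Whether a part was used more or less than the rest of its gene was tested directly with the relative use test of edgeR. The 5' UTR of Man2a1 was at -0.54, that of Dusp4 at -0.35 and that of Myt1l at -0.18 relative to the gene as a whole on the log2 scale, all with an adjusted p of 1. The test called 0 of 8860 gene parts (0%), with 63 at an unadjusted p under 0.05. The 3' UTR of Dusp4 had the largest estimate among the 9 parts, at 1.00 (unadjusted p = 0.385), with shares of 15.5%, 30.4% and 22.4% with exon 5 and 13.4%, 10.8% and 8.6% without it. Those shares did not overlap, as in 618 of 6069 genes with at least 100 counts (10.2%).

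Gene totals separated the isoforms by rank in all 3 genes. Man2a1 lay at 535, 581 and 516 CPM with exon 5, above its 429, 371 and 406 CPM without it. Dusp4 lay at 481, 322 and 291 CPM with exon 5, below its 611, 516 and 674 CPM without it. Myt1l lay at 447, 359 and 473 CPM with exon 5, below its 544, 491 and 789 CPM without it. Levels of the isoforms failed to overlap in 1160 of the 8342 gene totals tested (13.9%).

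The fitted differences of the totals were 0.44 (SE 0.62) for Man2a1, -0.72 (SE 0.64) for Dusp4 and -0.51 (SE 0.74) for Myt1l, each with an edgeR adjusted p of 1. The fit of the 6 isoform libraries called 2 of 7931 totals (0.0252%), with 622 at an unadjusted p under 0.05. In it the differences were 0.44 (95% interval -0.08 to 0.96), -0.71 (-1.29 to -0.13) and -0.51 (-1.07 to 0.06). Their edgeR adjusted p was 0.723, 0.535 and 0.692. The fit of all libraries called 0 of 8342 totals (0%), with 93 at an unadjusted p under 0.05, and DESeq2 called 1, which carries no symbol in the tables. So Man2a1 went one way by rank and Dusp4 and Myt1l the other, and none of these differences passed the test.

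In the authors' deposited table, which gives a log2 fold change of the isoform with exon 5 over that without it per gene part, the 5' UTR values were 0.08 for Man2a1, -0.89 for Dusp4 and -0.54 for Myt1l. That table puts all 3 5' UTRs in its class for both isoforms, among 408 genes with a 5' UTR entry there. The class header names a cut on the log2 fold change and the same direction in all replicates, not a test. It also classes all 3 CDS entries as shared, at 0.83, -0.72 and -0.31. It puts the 3' UTR of Man2a1, at 1.03, in the class of the isoform with exon 5, and the 3' UTRs of Dusp4 and Myt1l, at 0.29 and -0.63, in the shared class. By replicate number that part of Man2a1 was higher with exon 5 each time, at 60.4 against 44.6, 114 against 61.7 and 131 against 43.8 CPM. As ranges the isoforms overlapped there, at 60.4 to 131 CPM with exon 5 and 43.8 to 61.7 CPM without it. The class header does not ask for separate ranges.

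The 3 genes were among those with most 5' UTR reads, but not with the highest shares. Summed over the 6 pulldowns, the 5' UTR of Man2a1 had 1106 of 2439 counts, that of Dusp4 1001 of 2584 and that of Myt1l 727 of 2884. Among the 3456 ranked genes these were the 12th, 14th and 30th highest 5' UTR counts. The summed shares of 45.3%, 38.7% and 25.2% ranked 92nd, 138th and 341st, against a median of 4.42%. Counts per base of 5' UTR put Dusp4 10th, Man2a1 77th and Myt1l 389th, so Myt1l stood out by number of reads more than by density.

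No threshold in the shares marks these genes off. Sesn1 at 45.5% and Camk2n1 at 45.3% stood next to Man2a1 among the named genes in the order of shares, Spg21 at 38.7% and Tmem165 at 38.4% next to Dusp4, and Inpp5a and Frmd6, both at 25.2%, next to Myt1l. The zeros in the inputs were shared too. Of the 30 genes with at least the 727 5' UTR counts of Myt1l, 9 (30.0%) had no 5' UTR count in any input: Man2a1, Dusp4 and Myt1l, and also Wapl, Rai1, Tnfsf13b, Stk11, Onecut2 and Kif5c. Their shares ran from 6.76% in Rai1 to 91.7% in Tnfsf13b.

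**Figure D4:**
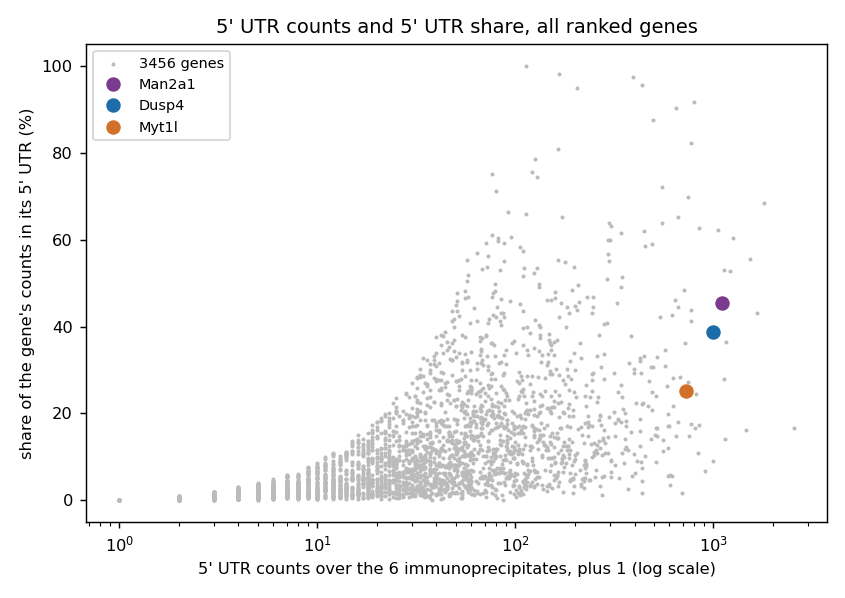
Share of a gene's counts in its 5' UTR (vertical axis, %) against its 5' UTR counts summed over the 6 pulldowns, plus 1 (horizontal axis, log scale), for 3456 genes in grey and Man2a1, Dusp4 and Myt1l in colour. The 3 genes lie at the right, at 45.3%, 38.7% and 25.2%, and many genes with fewer counts have higher shares.

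Likeness of pattern was measured as the mean absolute difference of the 3 part shares over the 6 pulldowns, 18 values, against 1713 named genes with at least 20 counts in each pulldown and all 3 part lengths. The nearest to Man2a1 was Dusp4, at 7.61 percentage points, followed by Tmeff1 at 9.94 and Agap1 at 10.3. The nearest to Dusp4 were Man2a1, Agap1 at 8.37 and Tmeff1 at 8.55. Of these, Agap1 had 1 count in its 5' UTR in the inputs and Tmeff1 had 10. Myt1l was 35th for Man2a1, at 16.3 points, and 14th for Dusp4, at 11.5 points; its own nearest were Rsrp1 at 7.91, Nsd3 at 8.03 and Ivns1abp at 8.26 points, all with lower 5' UTR shares. Since the genes were picked for their shares, this likeness describes them and supports nothing further.

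The other genes of the pathways were taken from lists chosen by function. Of 22 further genes of Golgi N-glycan processing, 17 were tested as gene totals, and none was called above or below input with either isoform, with 4 at an unadjusted p under 0.05 in each, where 29.3% of all totals had such a p with exon 5 and 29.1% without it; over all totals 8.81% and 8.97% were called higher and 0.863% and 0.611% lower, with and without exon 5. Mgat5, which adds a branch to the glycans that Man2a1 trims, came closest to Man2a1, with 247 of 554 pulldown counts (44.6%) in its 5' UTR and 0 of 72 in the inputs. Man2a2, the second Golgi alpha-mannosidase II, lay at 574 CPM with exon 5 and 623 CPM without it and had no 5' UTR entry. The median 5' UTR share among the list's genes with an entry and at least 100 counts was 3.0%.

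Of 27 further MAP kinase phosphatase and feedback genes, 20 were tested and none was called against input. An unadjusted edgeR p under 0.05 was seen in 6 with exon 5 and in 4 without it. Over all totals, 29.3% and 29.1% had such a p in the same order. The 5' UTR shares of this list were higher, with a median of 25.6% over 10 genes. The highest was Spred2, an inhibitor of signalling from Ras to the MAP kinases, at 246 of 526 counts (46.8%), and its relative Spred1 had 340 of 1285 (26.5%). Spred1 had 0 of 47 input counts there, but Spred2 had 14 of 24, so an input at 0 went with the lower of these shares. Dusp6, a cytoplasmic MAP kinase phosphatase, had 158 of 629 (25.1%) with 4 input counts.

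Of 24 further genes of the Myt1 family and neuronal fate, 14 were tested against input. With each isoform 6 had an unadjusted edgeR p under 0.05, beside 29.3% and 29.1% of all totals. Above input, 2 were called with each isoform, beside 8.81% and 8.97% of all totals called higher. The 2 were Sox11, at least 5.22-fold higher with exon 5 and at least 4.16-fold higher without it since all inputs were at 0, and Sox4, at 142 CPM with exon 5 and 157 CPM without it with 3 input counts, both transcription factors of developing neurons. Neither had a 5' UTR entry. Myt1, the closest relative of Myt1l, had 249 of 2361 pulldown counts (10.5%) in its 5' UTR and 0 of 21 in the inputs. Hand2, a transcription factor of sympathetic neurons, had 1125 of 2127 (52.9%), but also 57 of 104 in the inputs. Between the isoforms, edgeR called none of the 17, 20 and 14 genes of the 3 lists, and none had an unadjusted p under 0.05; the single total that DESeq2 called was in none of the lists.

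Base composition around the annotated starts was computed for Man2a1 and Myt1l, and Dusp4 was not analysed here. RefSeq windows on GRCm38.p6, reaching 250 bases before to 50 after a transcript start, held 70.0% G and C at the 1 start of Man2a1 and 40.0% to 59.3% at the 5 starts of Myt1l, against a median of 52.7% over 32851 windows. In the first 50 transcribed bases alone, Man2a1 had 68.0% and the Myt1l starts 48.0% to 68.0%, against a median of 56.0%. Which of the Myt1l starts the cells used was not tested.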

How the data were processed

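Per the file headers, the deposited tables give whole-number counts for each gene's 5' UTR, CDS, 3' UTR and total, with part lengths, and the authors also deposited a table of normalized signal and log2 fold changes for 5320 genes. The submitters' processing notes name TopHat2, DESeq2 and the build mm10. The sources used here do not give the counting tool, the strand setting or the handling of duplicates. In all, 9 deposited per-sample columns were not used. Input columns were matched to samples by reverse transcription primer, since their replicate numbers differ from the titles.

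Counts were tested with the edgeR 4.0.16 quasi-likelihood test (robust; filterByExpr, minimum count 10, minimum total 15; TMM on gene totals; no covariate) in R 4.3.3, with 9 libraries in 1 fit, 5' UTR, CDS and 3' UTR as separate rows, diffSpliceDGE for relative use, and Benjamini-Hochberg adjustment at 0.05. Of 22442 genes, 8342 totals and 12190 parts were tested. On simulated data the isoform test passed 0 of 50 changes of 2-fold and 1 of 50 of 4-fold. It passed 15 of 50 changes of 16-fold and 27 of 50 of 64-fold, so large changes were often missed as well. A missed threshold therefore does not show that the isoforms were alike. Members and lists were chosen with earlier results of these data known. Named genes are the members, their neighbours in rank and nearest genes, and the list genes called or with the highest 5' UTR shares; others were named after their values were seen. DESeq2 1.42.0, other scalings, no filter, fewer libraries and a replicate block were alternatives.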

Additional observations from a re-analysis of the deposited data

How the results depend on the processing

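Over all alternatives run, the 5' UTR difference between the isoforms kept its direction in Dusp4 (-1.23 to -0.91) and Myt1l (-0.96 to -0.50) and never passed the threshold in the 3 genes. In Man2a1, which lay near 0, it turned to 0.02 with each part scaled by itself, and leaving out 1 library gave -0.38 to 0.26, turning to 0.10 without replicate 1 with exon 5 and to 0.26 without replicate 3 without exon 5. Leaving out 1 library also turned the CDS level of Myt1l (-0.64 to 0.16) and the relative use of the CDS of Dusp4 (-0.34 to 0.06), of the CDS of Man2a1 (-0.02 to 0.62) and of the 3' UTR of Myt1l (-0.48 to 0.21); the cause was not tested. The share difference of Myt1l, -3.58 percentage points, was -6.85 with the 5' UTR plus CDS as denominator, and that of Dusp4 went from -7.62 to -2.59, and leaving out 1 library gave -24.5 to -4.62 in Man2a1, -12.1 to -4.89 in Dusp4 and -6.02 to -2.32 in Myt1l. Gene totals called went from 0 to 1 with DESeq2, 4 with no filter (Rpl22l1, 1700028K03Rik and 2 without a symbol) and 2 (Cnr1 and a gene with no symbol) in the fit of the 6 isoform libraries, and gene parts from 0 to 1 (Rpl22l1) with no filter; none was among the 3 genes. With the replicate number as a block the 5' UTR differences were -0.07, -1.07 and -0.71 for Man2a1, Dusp4 and Myt1l, and the block changed no call. To look for pairing, each gene total was taken on the log2 CPM scale as its deviation from the mean of its group. Correlations of these deviations, not of the levels themselves, were -0.00359, 0.0297 and 0.0378 between same-numbered libraries of the isoforms. Between those with different numbers they were -0.0457 to 0.017. Values this small cannot tell whether the numbers pair the samples. A block with the input numbers of the column names, chosen after seeing the data, gave the same -0.07, -1.07 and -0.71. Scaling each part by itself does not apply to gene totals. Both input depth, with 3 counts at 16.0 to 20.8 CPM, and the scaling limit the bounds against input.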
